A study of Homo sapiens with 2 samples.

Results

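The cytosolic ribosomal protein genes were followed across 2 sections of MDA-MB-231 tumors. They were taken by symbol: RPS or RPL, a number and at most 1 further letter A, X or L, plus RPLP0, RPLP1, RPLP2, RPSA and FAU, with a mean of at least 0.5 UMI (unique molecular identifier, the count of captured transcripts) per spot in both tumors. Of 36601 features, 82 matched by symbol and 80 met the mean, 33 of the small subunit and 47 of the large. The member nearest the threshold was RPL39L, with 1.72 UMIs per spot in tumor 1 and 1.09 in tumor 2, and the nearest gene outside was RPL10L, with 0.31 and 0.047. RPL3L, at 0.0032 and 0.0060 UMIs per spot, was the other symbol left out.

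MDA-MB-231 is a human triple-negative breast cancer line, here in its hypoxia fate-mapping form, in which cells that have met low oxygen change their fluorescent colour. The tumors were untreated, collected on day 18 after implantation, frozen and cut at 10 µm, and 1 section of each was placed on a Visium array, which captures polyadenylated RNA on spots of known position. Both tumors belong to 1 group (n = 2), and the labels do not say whether they came from separate mice. The p-values rest on how differences within a section vary between these 2 sections, a spread mostly pooled over all genes. They do not measure a spread between mice. A spot is a small area that can hold several cells, so fewer cells and less RNA per cell cannot be told apart, and reads of mouse RNA counted under human genes cannot be separated from those of the tumor. The spots were therefore compared within each tumor, by hypoxia score, by depth in the section and by spot UMIs.

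Ribosomal proteins are the protein part of the ribosome, the machine that makes all other proteins from messenger RNA. Each ribosome needs about equal amounts of them, and their messengers commonly begin with a C and a run of pyrimidines, the 5′ terminal oligopyrimidine (TOP) start. That start places their translation under the control of the mTORC1 kinase and the RNA-binding protein LARP1. Low oxygen is known to lower mTORC1 activity, partly through DDIT4 (REDD1).

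RefSeq promoter entries on GRCh38.p14 were matched by symbol for 64 of the 80 genes. A pyrimidine run was searched as a C followed by C or T only, at least 5 bases long and beginning within 5 bases of an annotated start. It was present in 54 of the 64 genes (84.4%) and in 6886 of all 27305 genes with an entry (25.2%), and the median run was 10 bases against 3. Of the starts below, RPL28, RPL12, RPL29 and RPL36 are shown because they were among the 6 highest genes of the hypoxia comparison, and FAU and RPL35 because they were among the 6 lowest. RPS18 was the gene most like the rest across spots, and RPS27L and RPS4X are examples without a run. Each shows 25 bases before the annotated start and 20 from it, on the strand of the gene, with the run in capitals.
RPL28, chr19:55385907-55385951, + strand: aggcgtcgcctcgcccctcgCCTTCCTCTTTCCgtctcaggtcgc
RPL12, chr9:127451387-127451431, - strand: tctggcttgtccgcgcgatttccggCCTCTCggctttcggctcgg
RPL29, chr3:51995876-51995920, - strand: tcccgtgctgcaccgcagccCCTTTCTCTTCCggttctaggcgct
RPL36, chr19:5690270-5690314, + strand: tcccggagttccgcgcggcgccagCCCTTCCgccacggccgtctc
RPS18, chr6:33272050-33272094, + strand: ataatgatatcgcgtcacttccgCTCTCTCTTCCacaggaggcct
FAU, chr11:65122115-65122159, - strand: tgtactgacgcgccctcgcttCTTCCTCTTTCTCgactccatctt
RPL35, chr9:124861938-124861982, - strand: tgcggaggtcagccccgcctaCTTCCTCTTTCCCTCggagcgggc
RPS27L, chr15:63157458-63157502, - strand: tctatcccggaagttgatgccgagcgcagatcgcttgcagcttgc
RPS4X, chrX:72277229-72277273, - strand: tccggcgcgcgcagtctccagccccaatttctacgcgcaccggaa

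RPS27L and RPS4X had no run of 5 or more bases by this rule, as had RPL15, RPL17, RPL27, RPL6, RPL9, RPS15, RPS26 and RPS29. The runs of FAU (13 bases) and RPL35 (15 bases) were at least as long as those of RPL28 (13 bases) and RPL12 (6 bases). The ETS-type motif CCGGAAGT, searched on both strands, was in 10 of the 64 entries (15.6%) and in 4.95% of all entries, and TATAAA was in 5 (7.81%) and in 13.99%. A match describes these letters and is no evidence of use. RPL23, RPL23A, RPL30, RPL37, RPL39L, RPL5, RPL7, RPL8, RPS15A, RPS2 and RPS20 were among the genes not matched.

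The 80 genes made up 23.9% of the UMIs of tumor 1 (14013874 of 58661164) and 22.2% of those of tumor 2 (8808158 of 39735490). These counts come from 2536 spots of tumor 1 and 2841 of tumor 2, each with 500 UMIs or more. The median spot held 23.8% of its UMIs in the 80 genes in tumor 1 and 21.9% in tumor 2, and the 5th and 95th percentiles were 21.4% and 29.2%, and 19.0% and 30.1%. In both sections, spots of high share lay together in patches and bands. The share of neighbouring spots was alike, with a Moran's I (a correlation of each spot with its neighbours) of 0.717 in tumor 1 and 0.808 in tumor 2 for the summed genes. Single genes had a median Moran's I of 0.200 and 0.172, against 0.051 and 0.090 for 4613 other genes, and a sum holds less counting noise than a single gene. The other genes had a mean of 0.5 UMI per spot or more and were not matched to the 80 on level. The part of level and counting noise in this gap was not tested.

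**Figure D1:**
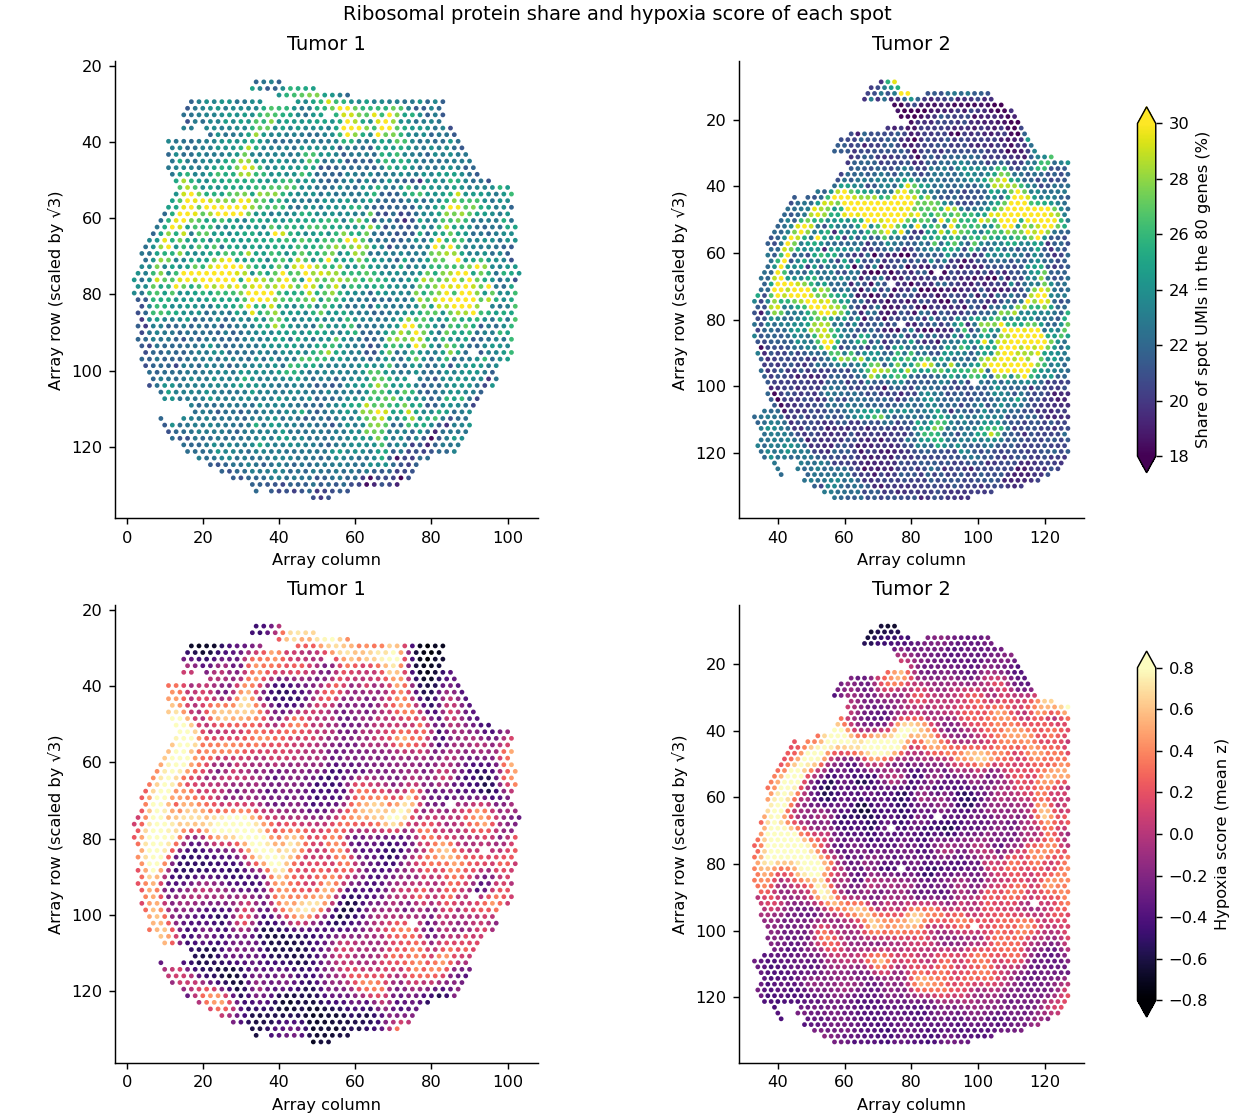
Each point is 1 spot at its array column and row. The upper maps colour the share of spot UMIs in the 80 ribosomal protein genes and the lower maps the hypoxia score. High shares lay in patches in both tumors, and across spots the share and the score had a Pearson r of 0.458 in tumor 1 and 0.515 in tumor 2.

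Both libraries held the markers of the line: VIM had a UMI in 100% of spots of both tumors, and AXL in 97.4% and 87.4%. Each tumor had an area of low counts, with 20.8% and 29.0% of the spots. There the UMIs averaged over a spot and its adjacent spots were below 11492 in tumor 1 and 5310 in tumor 2. Inside it the 80 genes took 25.3% and 23.6% of the UMIs, against 23.8% and 22.1% outside. The libraries share 1627 spot barcodes, which name positions on the array and not cells.

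The ribosomal protein share was higher where the hypoxia score was higher, in both tumors. The score is the mean z value of 28 genes known to be induced by hypoxia, CA9, VEGFA and NDRG1 among them, averaged over adjacent spots, and none of the 80 genes is in it. From the lowest to the highest score quartile the share was 22.8%, 23.6%, 24.3% and 25.3% in tumor 1. It was 20.6%, 20.6%, 22.3% and 24.3% in tumor 2. Tumor 1 rose through all 4 quartiles, and tumor 2 was level over the lower 2 and rose over the upper 2. In deciles of the spots the lowest share was 22.7% and the highest 25.95% in tumor 1. In tumor 2 the share was 20.8% in the first decile and 20.3% in the fourth, the lowest, and 24.99% in the last. The widest 95% Wilson interval of any share along score, depth or UMIs reached 0.456 percentage points to either side and covers counting error only.

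**Figure D2:**
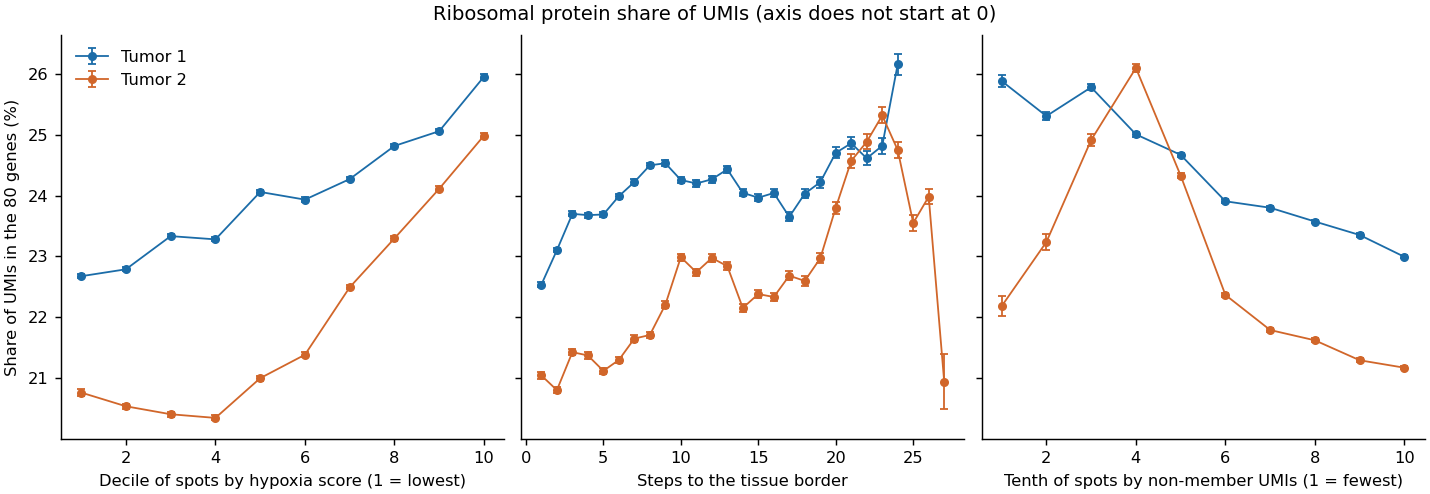
The share of UMIs in the 80 genes is plotted against the decile of spots by hypoxia score, the steps to the tissue border and the decile of spots by non-member UMIs. Points are pooled shares with 95% Wilson intervals, 1 line per tumor. From the first to the last decile of score the share went from 22.7% to 25.95% in tumor 1 and from 20.8% to 24.99% in tumor 2, with its lowest value of 20.3% in the fourth decile, and along spot UMIs it peaked in the fourth decile of tumor 2, at 26.1%.

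Gene by gene, UMIs were summed over the spots of the highest and of the lowest score quartile of each tumor, and the 4 sums were fitted with edgeR's quasi-likelihood test with tumor as a block. Of the 80 genes 61 rose in the high quartile and 0 fell, at a Benjamini-Hochberg adjusted p under 0.05 over all 14134 genes tested, of which 10.9% rose (1537 genes) and 9.17% fell. The median log2 difference of the 80 genes was 0.28 (0.26 in tumor 1 and 0.32 in tumor 2), against 0.0039 for all genes tested. The difference was above 0 for 79 genes in both tumors and below 0 in both for RPL39L. The large subunit had 38 of 47 genes called higher with a median of 0.31, and the small subunit 23 of 33 with a median of 0.26. With 4 sums there is 1 residual degree of freedom per gene, so the spread is mostly that of all genes.

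RPL28, a protein of the large subunit, had the highest difference. Its level in CPM, the UMIs of a gene scaled to a common library total (here with edgeR's TMM factors), was 4349 in the high and 3028 in the low quartile of tumor 1, and 2932 and 1755 in tumor 2. Both high quartiles lay above the low quartile of their own tumor, but the high quartile of tumor 2 lay below the low quartile of tumor 1. The log2 difference was 0.63 (SE 0.08, adjusted p = 6.6e-08, edgeR). Over the score quartiles its CPM, with TMM factors taken over all quartiles of both tumors, was 3078, 3375, 3711 and 4387 in tumor 1. It was 1771, 1882, 2297 and 2967 in tumor 2, a rise at every step in both.

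RPL12, which sits at the base of the stalk where elongation factors bind, came next. It was at 3114 and 2226 CPM in the high and low quartile of tumor 1 and at 3003 and 1888 in tumor 2, so the groups did not overlap, and its log2 difference was 0.58 (SE 0.08, adjusted p = 4.3e-07, edgeR). RPL29 (0.56), RPL36 (0.50) and RPL26 (0.49), also of the large subunit, were among the 6 highest and called higher. RPL26 had 0.37 in tumor 1 and 0.60 in tumor 2.

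The 3 proteins of the stalk itself moved less. RPLP0, the stalk's base, was at 4127 and 3550 CPM in tumor 1 and at 4029 and 3226 in tumor 2, and rose by 0.27 on the log2 scale (SE 0.08, adjusted p = 0.012, edgeR). RPLP1 and RPLP2, the acidic proteins that pair on it, rose by 0.27 (adjusted p = 0.013, edgeR) and 0.23 (adjusted p = 0.032, edgeR). RPSA, a small subunit protein also known as the laminin receptor precursor, rose by 0.23 (adjusted p = 0.032, edgeR).

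RPL3, which reaches to the site of peptide bond formation, rose by 0.40 (adjusted p = 0.00022, edgeR). RPS6, the small subunit protein that S6 kinase phosphorylates, was at 2181 and 1904 CPM in tumor 1 and 2525 and 1907 in tumor 2, and rose by 0.30 (adjusted p = 0.0057, edgeR). RPL41, the smallest ribosomal protein, rose by 0.32 (adjusted p = 0.0026, edgeR). All 3 were higher in the high quartile of either tumor.

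The low end of the list did not pass the test. FAU, whose product is a ubiquitin-like protein fused to a small subunit protein, was at 1520 and 1436 CPM in tumor 1 and at 1836 and 1744 in tumor 2, a log2 difference of 0.08 (SE 0.08, adjusted p = 0.54, edgeR). RPL35, at the exit of the peptide tunnel, had 0.062 (adjusted p = 0.64, edgeR). RPL27, RPL7 and RPS10 had 0.079, 0.089 and 0.12. RPS27A, the fusion of ubiquitin to a small subunit protein, had 0.20 (0.09 in tumor 1 and 0.31 in tumor 2, adjusted p = 0.074, edgeR).

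The paralogs stood apart from their partners by value. RPS27L, a copy of RPS27 known as a p53 target, had a log2 difference of 0.18 (adjusted p = 0.11, edgeR), and RPL39L, a copy of RPL39 known from testis, had -0.032 (SE 0.09, adjusted p = 0.85, edgeR). RPL39L was at 74.8 and 77.4 CPM in tumor 1 and 74.0 and 74.7 in tumor 2, so its groups overlapped. RPS27 rose by 0.43 and RPL39 by 0.46, both called. The differences between paralog and partner were not tested. Ribosomal protein genes have many processed copies in the genome, and how reads shared with them were counted is not given in the sources used here, so single genes are less certain than the sum.

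**Figure D3:**
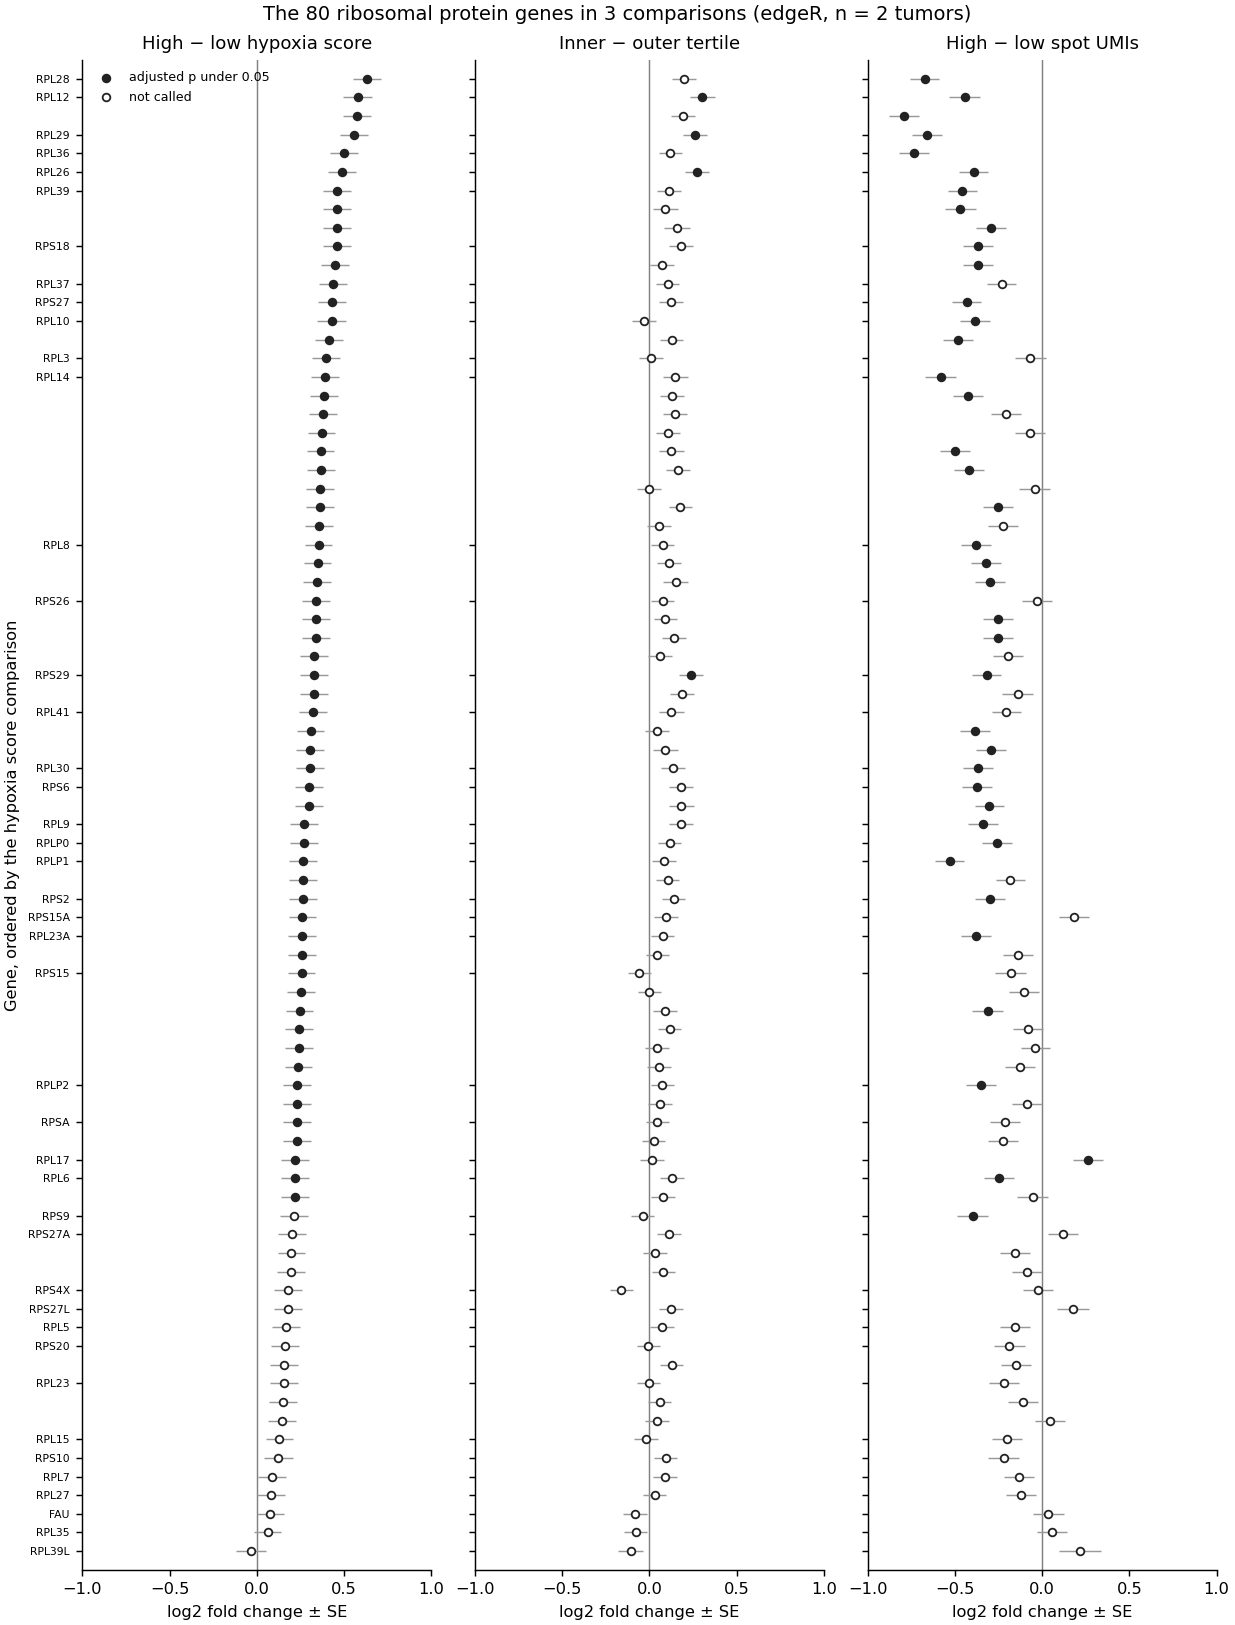
The log2 fold change of each of the 80 genes, with its SE, is plotted for the comparisons by hypoxia score, depth and spot UMIs, in 1 order of genes, with names for those described in the text. Filled points passed an adjusted p of 0.05 in edgeR (n = 2 tumors). By score, 61 genes were called higher, by depth 4, and by spot UMIs 39 were called lower and 1 higher.

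The calls depended on the model more than the direction did. Without the tumor as a block 0 of the 80 genes were called higher, against 2.96% of all genes. With DESeq2's Wald test 27 were (2.04% of all genes), and with library size alone as the scaling 27 (5.33%). Under that scaling the 80 genes had a median of 0.17, beside -0.11 over all genes tested. FAU, RPL27, RPL35 and RPL7 were then below 0. Between above-median and below-median spots 38 genes were called higher (5.31% of all genes).

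Other features of the spots moved with the score and their part in the result was not tested. The summed share of 58 markers of fibroblasts, endothelium, leukocytes, red cells, muscle, fat and skin was 0.198% of UMIs in the high and 0.177% in the low quartile of tumor 1, and 0.167% and 0.377% in tumor 2. Skeletal muscle markers (10 genes, CPM without TMM factors) came to 930 CPM in the low quartile of tumor 2, against 24.6 in its high quartile and 14.4 and 13.0 in tumor 1. The low-count area held 16.1% of the high-score and 8.99% of the low-score spots of tumor 1, and 8.02% and 49.2% of those of tumor 2, so it ran opposite ways in the tumors. Mitochondrial genes took 2.07% of UMIs in the high and 2.50% in the low quartile of tumor 1, and 1.49% and 1.64% in tumor 2. MALAT1, a nuclear RNA, took 0.221% and 0.139% in tumor 1 and 0.142% and 0.066% in tumor 2.

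With the low-count spots only removed, 41 genes were called higher by score (7.76% of all genes) with a median of 0.28. With score quartiles drawn anew outside the low-count area, 62 genes were called higher (13.0% of all genes) with a median of 0.31. That alternative was chosen after seeing the data.

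By spot UMIs the order was the opposite, with a lower share in the spots of more UMIs. Spots were ranked by their UMIs outside the 80 genes. These UMIs are also part of the divisor of the share, so the ranking and the share are not independent. From the lowest to the highest quartile the share was 25.7%, 24.9%, 23.8% and 23.2% in tumor 1. It was 23.2%, 25.004%, 21.96% and 21.3% in tumor 2, where the second quartile was highest. The lowest UMI quartile lay almost wholly in the low-count area in tumor 2 (99.0% of its spots) and largely so in tumor 1 (82.0%).

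Of the 80 genes 39 fell and 1 rose in the high UMI quartile, against 5.04% of the 14134 genes tested that fell and 2.39% that rose. Their median log2 difference was -0.23 (-0.26 in tumor 1 and -0.22 in tumor 2), and -0.20 with the 80 genes counted in the ranking. With library size alone as the scaling 24 fell (3.03% of all genes) and 5 rose (7.62%), with a median of -0.11 beside 0.13 over all genes tested. The large subunit had 26 of 47 genes called lower and the small subunit 13 of 33. The lowest quartile held the highest level for 61 genes in tumor 1 and for 18 in tumor 2, where 61 were highest in the second quartile.

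RPL36, a large subunit protein, was at 1739.5 CPM in the high and 2737 in the low UMI quartile of tumor 1 and at 1191 and 2095 in tumor 2, the groups not overlapping. RPL36 fell by 0.73 on the log2 scale (SE 0.09, adjusted p = 1.0e-14, edgeR). In the fits by spot UMIs the spread was wholly pooled over genes, so this p-value holds no spread of the gene's own. RPL28 fell by 0.67, RPL29 by 0.66 and RPL14 by 0.58. RPL36, RPL28 and RPL29 were also among the 6 highest by hypoxia score, but both comparisons use the same spots and are not independent.

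RPLP1 fell by 0.53 (adjusted p = 3.3e-08, edgeR), RPLP2 by 0.35 and RPLP0 by 0.26 (adjusted p = 0.036, edgeR). RPS6 fell by 0.38 (adjusted p = 0.00059, edgeR). RPSA and RPL41 had -0.21 and -0.20 and RPL3 had -0.07, none of which passed the test. RPL3 was below 0 in tumor 1 (-0.19) and above it in tumor 2 (0.07).

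RPL17, a large subunit protein near the tunnel exit, was the 1 gene called higher. It was at 2792 and 2754 CPM in the high and low UMI quartile of tumor 1 and at 2714 and 1902 in tumor 2, a log2 difference of 0.26 (adjusted p = 0.038, edgeR). The difference came to 0.02 in tumor 1 and 0.51 in tumor 2, so it rests on tumor 2, and with quartiles drawn anew outside the low-count area it was -0.22. RPL39L (0.22), RPS15A (0.18), RPS27L (0.18), RPS27A (0.12), RPL35 (0.058) and FAU (0.04) were above 0 and did not pass the test. RPS15A, RPL35 and FAU were below 0 in tumor 1 (-0.025, -0.049 and -0.088), and with quartiles drawn anew they had -0.25, -0.30 and -0.30 over both tumors. RPS27A and RPS27L then had -0.068 and -0.0092, and RPL39L 0.19.

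Within quartiles drawn anew outside the low-count area 43 genes were called lower (9.06% of all genes) and 0 higher (5.19%), with a median of -0.32. With the low-count spots only removed, tumor 2 keeps 7 spots in its low quartile and 0 of the 80 genes were called lower (0.199% of all genes). Without the tumor block 0 were called lower (0.729% of all genes), and 19 were when UMIs were averaged over adjacent spots (2.39%). Mitochondrial genes took 2.36% of UMIs in the high and 2.89% in the low quartile of tumor 1, and 1.69% and 3.18% in tumor 2. MALAT1 took 0.141% and 0.281%, and 0.085% and 0.241%. The 58 markers of other cells took 0.161% in the high and 0.210% in the low quartile of tumor 1, and 0.154% and 0.273% in tumor 2, where the 12 fibroblast markers came to 754 and 1714 CPM without TMM factors. In tumor 1 these came to 800 and 1223. The fibroblast markers LUM and FAP were at 0 in the low quartile of tumor 2. The part of these in the result was not tested.

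The score and the spot UMIs were then crossed. Within each UMI quartile the share of the highest score quartile exceeded that of the lowest, by 2.24, 3.56, 2.14 and 0.844 percentage points from the fewest to the most UMIs in tumor 1. In tumor 2 the differences were 8.19, 5.71, 3.60 and 2.45 points, the first resting on 36 high-score spots. The difference was above 0 in all 8 cells of this comparison and lowest at the most UMIs in both tumors. The share ran from 22.6% to 27.3% over the grid of tumor 1 and from 20.1% to 29.7% over that of tumor 2.

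**Figure D4:**
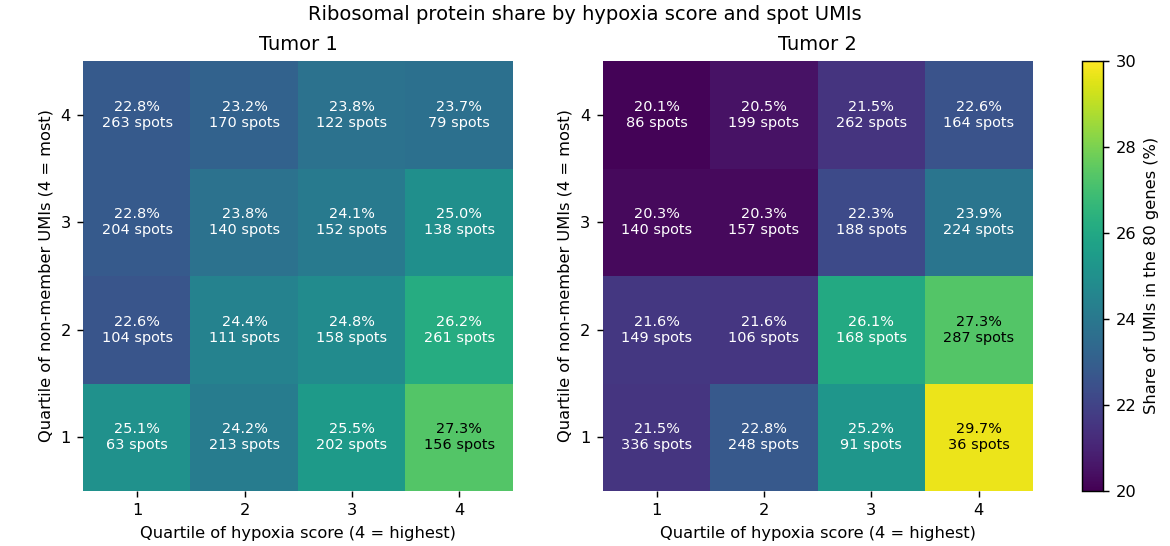
Each square gives the share of UMIs in the 80 genes and the number of spots for a quartile of hypoxia score and a quartile of non-member UMIs, 1 panel per tumor. The share was highest at a high score and few UMIs, 27.3% in tumor 1 and 29.7% in tumor 2.

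Spots of the high and low score quartile were also matched on UMIs, 350 against 350 in tumor 1 and 408 against 408 in tumor 2. The share was 24.8% and 22.9% in tumor 1 and 24.3% and 20.5% in tumor 2. Of the 80 genes 34 were called higher and 0 lower (8.47% of all 13367 genes tested were higher and 6.93% lower), with a median log2 difference of 0.27. RPL28 was at 4082 and 3083 CPM in tumor 1 and 2960 and 1697 in tumor 2, and rose by 0.60 (SE 0.11, adjusted p = 0.00011, edgeR). RPL12 (0.55), RPL29 (0.51) and RPL36 (0.46) were also called higher. RPLP0, RPLP1, RPLP2, RPSA and RPS6 had 0.26, 0.23, 0.20, 0.20 and 0.29 and were no longer called. Without spots rich in markers of other cells 63 genes were called higher (10.2% of all genes), and 9 with DESeq2's Wald test (1.38%). With library size alone 10 were (4.74%), in thinned spots 15 (3.11%), and without the tumor block 0 (2.6%).

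High and low UMI quartiles matched on the score held 23.4% and 25.5% in tumor 1 and 20.7% and 23.8% in tumor 2. Here 26 genes fell and 0 rose (2.51% of 13173 genes fell and 0.714% rose), with a median of -0.27. RPL36 fell by 0.77, RPL28 by 0.72 and RPL29 by 0.72. RPL17 had 0.22 (adjusted p = 0.39, edgeR) and was not called. With DESeq2's Wald test 9 genes were called lower (0.63% of all genes), and with library size alone 16 (1.65%). In thinned spots 7 were (1.2%), and without the tumor block 0 (0.44%). With the low-count spots removed, which leaves 7 spots against 7 in tumor 2, 0 were (0.0539% of all genes).

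Depth in the section separated the genes less. It was counted in steps from spot to spot to the tissue border, and spots were cut in tertiles. From the outer to the inner tertile the share was 23.3%, 24.3% and 24.3% in tumor 1. It was 21.3%, 22.5% and 23.2% in tumor 2. The outermost spots, 1 step from the border, held 22.5% and 21.0%. Step by step the share did not rise evenly. In tumor 1 it was 24.5% at 9 steps, 23.7% at 17 steps and 26.2% at 24 steps, over 23 spots. In tumor 2 it was 22.99% at 10 steps, 22.2% at 14 steps, 25.3% at 23 steps and 20.9% at 27 steps, over 21 spots. As a mean over spots, which gives each spot the same weight, tumor 2 had 23.9% at 10 steps and 23.5% at 23 steps. Its tertiles then had 21.95%, 23.5% and 22.99% from outer to inner, with the middle one highest.

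Of the 80 genes 4 were called higher in the inner tertile and 0 lower, where 2.3% of 14758 genes were called higher and 3.36% lower. The median log2 difference was 0.092 (0.046 in tumor 1 and 0.14 in tumor 2). RPL12 was at 2776 and 2406 CPM in the inner and outer tertile of tumor 1 and at 2749 and 2081 in tumor 2, and rose by 0.30 (SE 0.07, adjusted p = 0.013, edgeR). RPL26 rose by 0.27, RPL29 by 0.26 and RPS29, a zinc-binding protein of the small subunit, by 0.24. RPL28 had 0.20 and did not pass the test.

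At the other end RPS4X, the X-linked small subunit protein, had -0.16 (adjusted p = 0.18, edgeR), at 1779 and 2031 CPM in tumor 1 and 1823 and 1996 in tumor 2. The 2 inner tertiles lay below the 2 outer ones. RPL39L had -0.11, FAU -0.08, RPL35 -0.08, RPS15 -0.06 and RPS9 -0.04. RPS6 (0.18), RPL41 (0.13), RPS27L (0.12), RPLP0 (0.12), RPS27A (0.11), RPLP1 (0.08), RPLP2 (0.07), RPSA (0.04) and RPL3 (0.01) lay between, and none was called.

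The depth calls moved with the settings. With the frame edge counted as border 15 genes were called higher (4.05% of all genes) and 1 lower (5.38%), and with depth matched on the score 1 was called higher (1.61%). With DESeq2's Wald test 0 were called higher (0.149% of all genes), nor any without the tumor block (0.0474%). The inner tertile held 40.4% low-count spots in tumor 1 and 55.1% in tumor 2, against 6.20% and 10.1% in the outer. Markers of other cells took 0.140% of UMIs in the inner and 0.239% in the outer tertile of tumor 1, and 0.127% and 0.330% in tumor 2. Their part in the result was not tested.

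The genes kept much the same order in both tumors. Across the 80 genes the log2 differences of tumor 1 and tumor 2 had a Pearson r of 0.73 by score, 0.83 by depth and 0.84 by spot UMIs. Over all genes tested r was 0.51, 0.47 and 0.28, with many genes of lower counts. These are a description, since genes are not independent replicates. RPS4X was among those that differed most between the tumors by score, with 0.32 in tumor 1 and 0.04 in tumor 2, and RPS9 had 0.31 and 0.12. RPS29 had 0.20 and 0.46. The difference between tumors was not tested.

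**Figure D5:**
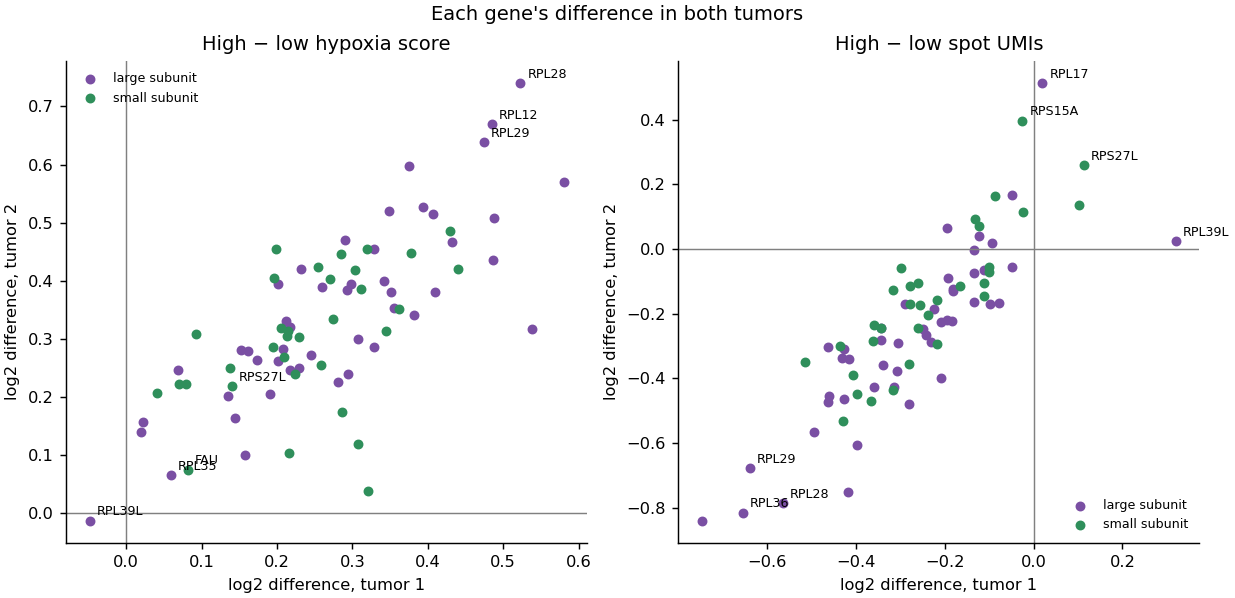
Each point is 1 of the 80 genes, with its log2 difference in tumor 1 on the horizontal and in tumor 2 on the vertical axis, coloured by subunit. By hypoxia score (left) 79 genes lay above 0 in both tumors, and by spot UMIs (right) 67 lay below 0 in both.

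Across single spots the genes varied together to unequal degree. For each gene, UMIs per 10000 UMIs outside the ribosomal protein genes were taken on a log scale. This value was correlated with that of the other 79 summed, over 2536 and 2841 spots that share a library and differ in depth. Both values have the same divisor, which can raise r, and its part in r was not tested. The median Pearson r was 0.47 in tumor 1 and 0.32 in tumor 2, and it was highest for RPS18 (0.76 and 0.64). RPL28 had 0.73 and 0.55. FAU had 0.12 and 0.12, RPS27L 0.0082 and 0.052, and RPL39L -0.14 and -0.065. RPL39L had 1.72 and 1.09 UMIs per spot, and counting noise lowers r in such sparse genes.

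Among 4613 other genes the one most like the summed ribosomal protein genes across spots, by the lower of its r in the tumors, was EEF1A1, the elongation factor that brings tRNA to the ribosome (0.73 and 0.68). NDRG1, MT1X, FTH1, MT2A, FTL, TPT1, BNIP3, MIF and GAPDH came next, of which NDRG1 and BNIP3 are score genes. The other genes were scaled by the same divisor and are themselves part of it. MT1X and MT2A encode metallothioneins, which bind metal ions, and FTH1 and FTL the subunits of ferritin, which stores iron.

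Other genes of the translation machinery were read from lists. Of 24 genes known for a TOP start, elongation and initiation factors mostly, 15 rose and 0 fell with the hypoxia score, with a median of 0.26, where 10.9% of all genes rose and 9.17% fell. GAS5, a noncoding host of small nucleolar RNAs, rose by 0.82 (736 and 468 CPM in tumor 1, 676 and 339 in tumor 2, adjusted p = 2.5e-10, edgeR), and TPT1 rose by 0.48. By spot UMIs 14 of the 24 fell and 0 rose (5.04% and 2.39% of all genes), with PABPC1, the poly(A)-binding protein, at -0.95 and TPT1 at -0.69. By depth 3 rose (2.3% of all genes), GAS5 (0.41) and EIF4B (0.25) with the largest differences.

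The counts by score of the other lists stand beside the same 10.9% and 9.17% of all genes, and nothing particular to these lists is read from them. Of 78 mitochondrial ribosome genes, which serve the separate ribosome of mitochondria, 4 rose and 10 fell with the score (median -0.095), with MRPS7 at -0.45 and MRPS11 at -0.39. By spot UMIs 10 of them rose and 0 fell (2.39% and 5.04% of all genes), MRPL46 by 0.68 and MRPS21 by 0.64. Of 30 ribosome biogenesis genes 3 rose and 4 fell with the score (median -0.066), with POLR1A, the largest subunit of RNA polymerase I, at -0.45 and NOP56, a nucleolar protein of box C/D particles, at -0.43. Of 23 genes of mTORC1 and translation control 0 rose and 3 fell, EIF4EBP2, a repressor of cap-dependent initiation, at -0.50, while DDIT4L had 0.96 at 0.80 to 3.33 CPM and was not called (adjusted p = 0.070, edgeR). DDIT4 is a score gene and was not tested there.

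Of 6 ribosomal protein genes outside the rule 0 were called by score, with RPL10L at -0.21 and RPL22L1 at 0.12. By depth RPL10L, a retrogene copy of RPL10, fell by 1.11, from 20.04 CPM in the outer to 9.23 in the inner tertile of tumor 1 and from 4.35 to 2.09 in tumor 2 (adjusted p = 0.00015, edgeR).

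Within the 80 genes the start was set beside the differences as a description. By score, the 54 genes with a pyrimidine run had a median log2 difference of 0.32 with 45 called higher, and the 10 without one a median of 0.22 with 6 called higher. By spot UMIs the medians were -0.25 and -0.15. The ranges overlapped: genes with a run lay between 0.062 and 0.63 by score, and those without between 0.079 and 0.34. The difference was not tested.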

How the data were processed

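Deposited UMI counts per gene and spot were made by the authors; the headers name Space Ranger 1.3.0. The build was hg38, per the submitters' processing notes. How multi-mapped reads were treated is not given in the sources used here. The 80 genes, the score and the lists were chosen with earlier results of these data known. A tissue-covered spot entered with 500 UMIs or more (58661164 and 39735490 UMIs in all). Zones were set within each tumor, and counts were summed per zone, filtered (filterByExpr), TMM-scaled and fitted with edgeR 4.0.16 (R 4.3.3), tumor as a block. Labels number no pairs: each tumor supplies both of its zones, which is the pairing. DESeq2 1.42.0 was an alternative, and the fit was tested on simulated data. Score genes were left out of the score comparisons. Genes named in each comparison are among the 6 highest, the 6 lowest, 10 further genes of known roles and the 2 largest differences of each list. RPS18, RPS27, RPL39 and, by score, RPS29, RPS9 and RPS4X were added after their values were seen. Some genes that this rule picks are not reported here.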

Additional observations from a re-analysis of the deposited data

How the results depend on the processing

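With 2 tumors, 4 sums per fit and 1 residual degree of freedom, the counts of calls rest on a spread shared by all genes, and leaving out a tumor leaves values with no test. By hypoxia score (61 higher), 27 genes were called under library size alone, 27 with DESeq2's Wald test, 38 above against below the median and 0 with no replicate block, that is without the pairing of zones by tumor. The median log2 difference (0.28) was 0.17 under library size alone, 0.34 for the top against the bottom decile and 0.19 above against below the median, where the share differed by 2.13 percentage points. Matched on UMIs (34 higher), 10 were called under library size alone, 9 with DESeq2, 0 with no replicate block, 15 in thinned spots and 63 without spots rich in other markers, and the median was 0.16 under library size alone. Under library size alone FAU was at -0.037, RPL27 at -0.036, RPL35 at -0.053 and RPL7 at -0.026 by score, and matched on UMIs FAU was at -0.045, RPL27 at -0.040, RPL35 at -0.075, RPL7 at -0.029 and RPL39L at -0.042. By depth (4 higher), the counts were 0 with DESeq2, 0 with no replicate block, 9 with no filter (1.88% of all genes), 2 without spots rich in other markers (2.39%), 15 with the frame edge as border (1 lower), 1 by quartiles (2.18%) and 1 matched on score. RPL3 by depth was at -0.00014 under library size alone, -0.0046 with no filter, -0.032 in thinned spots and -0.022 with the frame edge as border, and RPS9 at 0.0030 without spots rich in other markers.

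By spot UMIs (39 lower, 1 higher), 5 were called higher under library size alone and 0 with DESeq2, no replicate block, at least 2000 UMIs per spot, thinned spots, no low-count area, averaged UMIs or quartiles drawn anew, where at most 5.19% of all genes were. Called lower were 24 under library size alone, 0 with no replicate block, 0 without the low-count area, 20 by deciles (1.81% of all genes) and 19 with averaged UMIs. The median (-0.23) was -0.11 under library size alone, -0.19 with no filter, -0.28 at 2000 UMIs, -0.28 in thinned spots, -0.20 with the 80 genes in the spot total, -0.32 with quartiles drawn anew and 0.078 without the low-count area. The share differed by -2.98 points at 2000 UMIs, -2.68 in thinned spots, -3.94 without the low-count area, -1.73 with the 80 genes in the total and -3.30 with quartiles drawn anew. Matched on score (26 lower), 1 was called higher (2.66% of all genes) and 16 lower under library size alone, and 9 lower with DESeq2, 0 with no replicate block, 17 at 2000 UMIs (1.57%), 7 in thinned spots and 0 without the low-count area. The median there was -0.14 under library size alone and 0.034 without the low-count area, where the share differed by -3.77 points. With no low-count area, tumor 2 keeps 7 low-UMI spots with 12515 UMIs in all, so the fitted values have little behind them: RPL3 0.25, RPL41 0.28, RPLP0 0.058, RPLP2 0.0066, RPS6 0.077 and RPSA 0.086, and matched on score RPL3 0.23, RPL41 0.16, RPSA 0.033 and FAU -0.0053. With quartiles drawn anew FAU was at -0.30, RPL17 -0.22, RPL35 -0.30, RPS15A -0.25, RPS27A -0.068 and RPS27L -0.0092. FAU was at -0.021 and RPL35 at -0.025 at 2000 UMIs (RPL35 -0.0025 matched on score), and FAU at -0.016 in thinned spots and -0.0088 by deciles. RPL3 was at 0.052 under library size alone and 0.034 matched on score.

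Leaving out either tumor gave, by spot UMIs, a median of -0.26 to -0.22, and FAU -0.088 to 0.16, RPL3 -0.19 to 0.065, RPL35 -0.049 to 0.17 and RPS15A -0.025 to 0.40. Matched on score FAU ran from -0.14 to 0.17 and RPL35 from -0.049 to 0.18. By depth RPL3 ran from -0.075 to 0.091 and RPS9 from -0.10 to 0.022. By hypoxia score RPL10L ran from -0.84 to 0.0046 and RPL22L1 from -0.0080 to 0.24, and matched on UMIs RPL7 ran from -0.0094 to 0.16 and RPL27 from -0.016 to 0.15. For genes that the rule picks or the text adds, each gene's value in each comparison and each other setting was counted. Of these values 165 ended a call, 47 brought one and 49 reversed the direction. The remaining 1734 changed neither, but these include the left-out tumors, which have no test and were judged on direction alone. The cause of each change was not tested. Counting error was small for the shares and larger for RPL39L, RPL10L and DDIT4L, which have few UMIs.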
